A study of Mus musculus with 18 samples.

Results

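The Top2a and Top2b loci, which encode both type II DNA topoisomerases of the mouse, were followed by ATAC-seq in embryonic stem (ES) cells. ATAC-seq relies on a transposase that cuts and tags accessible DNA, and accessible sites then stand out as peaks of reads. All peaks of 18 libraries that overlap the 80 kb window chr11:98830000-98910000 (Top2a) or the 170 kb window chr14:17150000-17320000 (Top2b), both on mm9, were taken, and peaks that overlap by 1 bp or more were merged. This gave 25 regions from 129 peaks in the Top2a window and 22 regions from 153 peaks in the Top2b window, 47 of the 377189 regions of the series. The windows were given as coordinates, and the position of each gene's start, exons and introns on mm9 was not determined here, so that a peak is placed by its coordinates alone. In gene order (RefSeq, GRCm38.p6) Top2a lies between Gjd3 and Igfbp4 and Top2b between Ngly1 and Rarb, and peaks near the window edges may lie in or near those genes.

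Wild-type ES cells received 1 µM ICRF-193 or DMSO, its solvent, over 24 h (2 libraries per group) or, by the sample titles, for 1 h (3 libraries per group). ES cells of the genotypes Brg1 fl/fl; Actin-CreER and Baf53a fl/-; Actin-CreER were grown for 24 h with 0.8 µM tamoxifen or with ethanol, followed by 48 h in fresh medium (2 libraries per group). All cells were kept in serum and LIF, and viable cells were sorted before transposition. Libraries of a group were passages of a line rather than separate lines, so that p-values cover passage and library spread only. The Baf53a ethanol controls already lack 1 allele, and the share of cells in which Cre removed its target was not measured here. The treatment protocol states 24 h for all wild-type samples, and each 1 h value rests on the titles and the design text.

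Type II topoisomerases cut both strands of a duplex, pass another duplex through the gap and reseal it, which removes supercoils and untangles sister chromatids. TOP2A is made mainly in dividing cells and is needed to separate chromosomes at mitosis, whereas TOP2B is made in dividing and non-dividing cells and is known for roles in transcription, in neurons above all. ICRF-193 is a bisdioxopiperazine that holds the enzyme as a closed clamp on DNA and acts on both forms. BRG1 (gene Smarca4) is the ATPase of the BAF chromatin remodelling complex, and BAF53A (gene Actl6a) is an actin-related subunit of it. The study asked how TOP2 and BAF act together on chromatin. The loci of the enzymes themselves were examined here, with ICRF-193 against DMSO first.

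The promoter letters of both genes are shown because accessibility at a gene often centres on its start. They are the 250 bases before the start in the RefSeq table (GRCm38.p6), 5′ to 3′ along the gene, Top2a on the minus and Top2b on the plus strand. No peak was tied to them, since the peaks are on mm9. Capitals mark matches on either strand to 3 motifs. The CCAAT box is bound by NF-Y and reads ATTGG where it lies on the opposite strand. The GC box, GGGCGG, is bound by SP1 and reads CCGCCC on that strand. The cell cycle homology region was searched as TTTGAA, which reads TTCAAA on the opposite strand, and as the variant TTTAAA, which reads alike on either.
Top2a: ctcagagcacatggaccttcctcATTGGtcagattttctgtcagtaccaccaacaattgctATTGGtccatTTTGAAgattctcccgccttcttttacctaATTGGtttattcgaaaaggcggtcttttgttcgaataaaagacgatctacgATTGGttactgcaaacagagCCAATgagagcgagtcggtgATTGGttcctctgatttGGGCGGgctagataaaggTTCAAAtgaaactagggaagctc
Top2b: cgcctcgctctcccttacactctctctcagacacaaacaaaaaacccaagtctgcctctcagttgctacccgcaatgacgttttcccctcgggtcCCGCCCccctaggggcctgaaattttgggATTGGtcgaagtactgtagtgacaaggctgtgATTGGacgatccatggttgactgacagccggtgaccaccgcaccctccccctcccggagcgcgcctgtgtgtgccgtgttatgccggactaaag

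The Top2a promoter held 6 CCAAT matches, a number reached or passed by 19 (0.0578%) of the 32851 promoters in the table, and the Top2b promoter held 2, reached or passed by 10.1%. At least 1 CCAAT match was present in 33.8% of all promoters. Each promoter held 1 GC box, as 32.7% of all promoters did at least once. Top2a held 2 TTTGAA matches, reached by 1.81% of promoters, the nearer beginning 23 bases before the start. Top2b held none of them, and TTTAAA was in neither promoter (12.1% of all promoters held it). The share of G and C was 43.6% for Top2a and 57.6% for Top2b, with a median of 52.4% over all promoters. A match describes these letters and does not show binding.

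The libraries differed in how many peaks they hold, and this bears on every count that follows. List lengths ran from 46431 peaks (Brg1 tamoxifen replicate 2) through 50611 and 58532 (replicate 2 of ICRF-193 and of DMSO at 1 h) to 129880 (DMSO at 1 h, replicate 3). Read depth is unknown, since each peak has a position and a score but no count of reads. The part of list length in the results was examined by repeating them with equal numbers of peaks per list, and that of depth was not tested. The score has no stated unit and is given as a percentile within its list, where 100 is the highest-scoring peak. Since lists of different length give percentiles that cannot be set against each other, the rank among the 18061 regions that held a peak in all 18 libraries, called the common rank below, is given beside it. The common rank was added after the data were seen.

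Each window held few regions of constant detection and many that appeared in a single library. In the Top2a window 1 of the 25 regions (4%) was detected in all 18 libraries and 12 (48.0%) in 1 library alone. In the Top2b window 4 of the 22 regions (18.2%) had a peak in all 18 and 10 (45.5%) in 1 alone. Over all regions of the series the shares were 4.79% and 54.9%. The regions held by all libraries had a median width of 822 bp after merging, and those of a single library 136.5 bp, against 915 and 138 bp in the whole series.

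**Figure D1:**
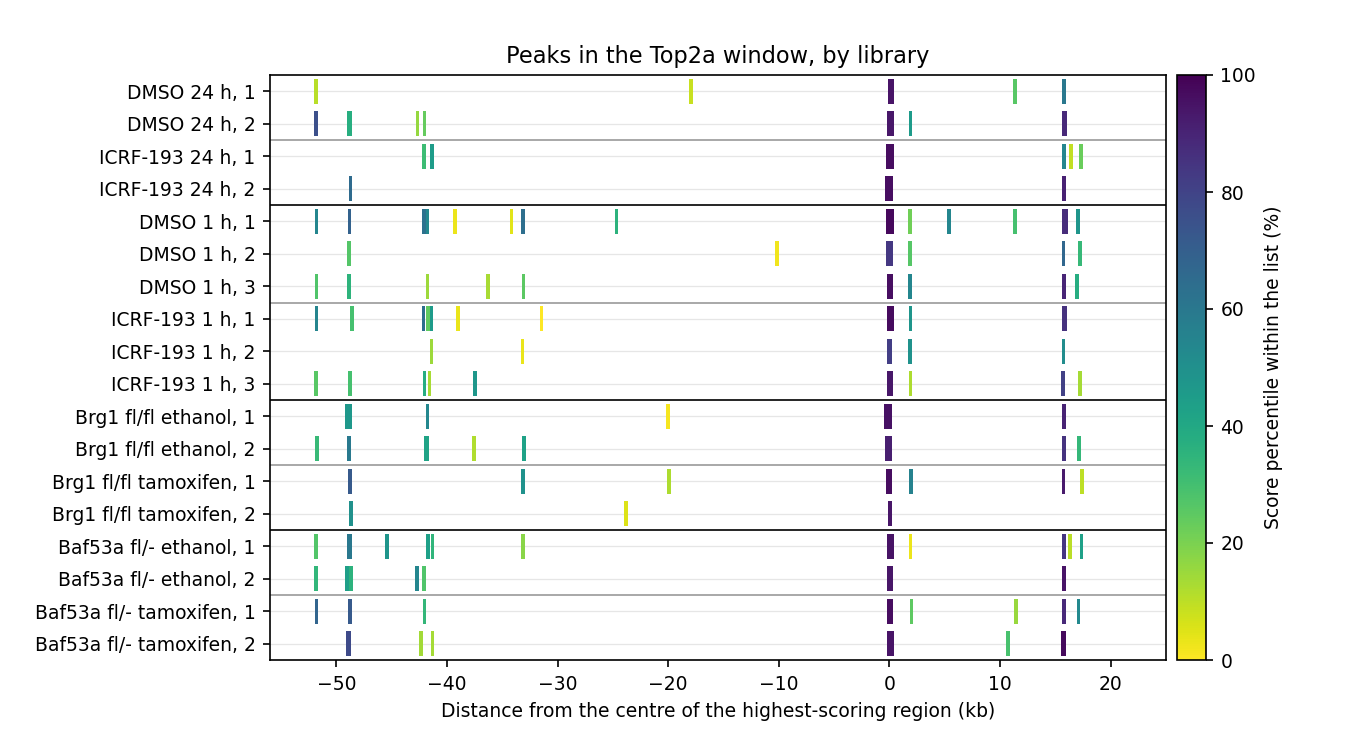
Peaks in the Top2a window in each library (rows, with replicate numbers), by distance in kb from the centre of the highest-scoring region, coloured by score percentile within the list; narrow peaks are drawn wider than they are so that they can be seen. The column at 0 kb is filled in all 18 libraries and that at 15.8 kb in 17, while the stretch from -31.5 to -10.1 kb holds only isolated pale peaks.

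**Figure D2:**
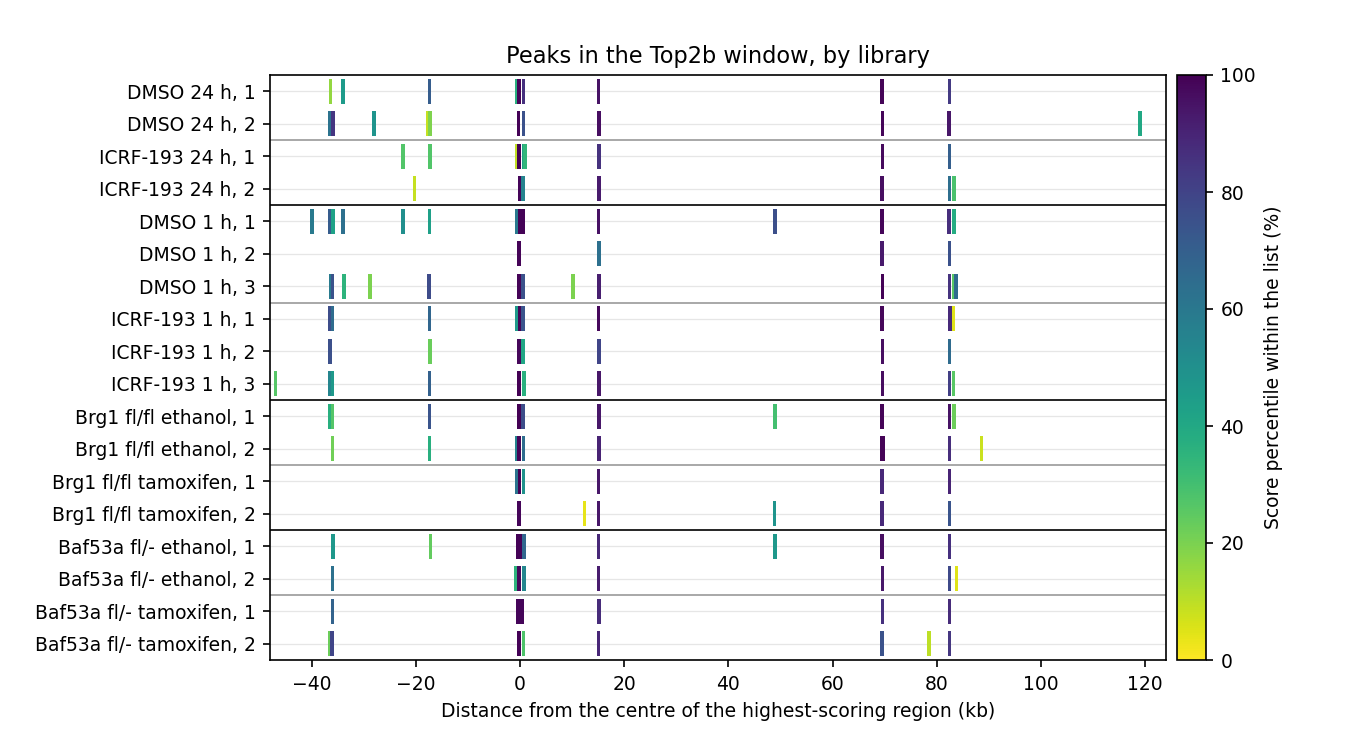
The same map for the Top2b window. Columns at 0, 15.1, 69.6 and 82.4 kb are filled in all 18 libraries, and the columns at -35.9 and -17.4 kb are filled in both Brg1 ethanol rows and in neither Brg1 tamoxifen row.

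The highest-scoring Top2a region, chr11:98885081-98885975 (895 bp), held exactly 1 peak in every library, and its percentile within the list ran from 81.8 to 98.02 with a median of 94.9. Distances below are between region centres, from this region in the Top2a window and from its counterpart in the Top2b window, positive towards higher coordinates. With ICRF-193 for 24 h its common rank was 83.6 and 85.3, and with DMSO 73.7 and 64.3. Both treated libraries thus ranked it higher than both controls (84.4 ± 1.17 against 69.0 ± 6.61, SD, n = 2 each). Within the whole list the order was the same but the distance small, at 96.7 and 96.3 with ICRF-193 against 94.6 and 93.9 with DMSO, a mean difference of 2.30 points. At 1 h the values were 84.5, 56.1 and 71.1 with ICRF-193 and 87.5, 54.8 and 75.9 with DMSO, which overlapped throughout. The lowest of each group was replicate 2, the shortest list of that group.

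By common rank the same Top2a region also stood higher after each BAF deletion. For Brg1 the common rank was 84.3 and 85.3 with tamoxifen and 76.4 and 64.8 with ethanol. For Baf53a it was 83.7 and 76.3 against 72.4 and 76.1, where the lower tamoxifen value barely exceeds the higher ethanol value. Within the whole list the groups overlapped in both lines (94.2 to 96.6 with tamoxifen and 91.5 to 95.5 with ethanol in the Brg1 line). The mean difference in common rank was 15.5 points with ICRF-193 for 24 h, 14.2 after Brg1 deletion and 5.70 after Baf53a deletion. Differences at least as high were found in 14.96%, 20.5% and 32.4% of the 18061 common regions, so that such a difference was frequent among them.

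A second Top2a-window region, chr11:98901031-98901683 at 15.8 kb, held a peak in 17 of 18 libraries, and the exception was Brg1 tamoxifen replicate 2, the shortest list of the series. Its percentile within the list was 59.99 and 88.3 with DMSO for 24 h and 53.9 and 90.9 with ICRF-193. At 1 h it was 87.3, 67.1 and 89.6 with DMSO and 85.7, 51.3 and 80.5 with ICRF-193. The groups overlapped at both times. In the Brg1 line the ethanol libraries stood at 90.6 and 85.2 and tamoxifen replicate 1 at 93.3. The Baf53a values were 84.5 and 94.8 with ethanol and 88.6 and 97.6 with tamoxifen.

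The region chr11:98836308-98837059, at -48.8 kb, held a peak in 15 libraries, with percentiles from 26.6 to 77.6. It was present in 1 of 2 DMSO and 1 of 2 ICRF-193 libraries at 24 h, in 3 of 3 DMSO and 2 of 3 ICRF-193 libraries at 1 h, and in all 8 libraries of the deletion lines. The region chr11:98843111-98844333, at -41.8 kb, held up to 3 separate peaks per list and was present in 13 libraries, with percentiles from 13.9 to 64.4. Both ethanol libraries of the Brg1 line held it, at percentiles 53.6 and 42.0, and neither tamoxifen library did. All 4 Baf53a libraries held it, at 43.4 and 27.4 with ethanol and 33.8 and 13.9 with tamoxifen. The region chr11:98833547-98833886, at -51.8 kb, was present in both DMSO libraries at 24 h, at percentiles 10.9 and 75.5, and in neither ICRF-193 library. At 1 h 2 of 3 DMSO and 2 of 3 ICRF-193 libraries held it.

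The other 20 regions of the Top2a window were held by 1 to 10 libraries. Between -31.5 and -10.1 kb lay 6 regions, each with a peak in 1 or 2 libraries and with percentiles of at most 35.6. Next to the highest-scoring region, at 1.9 kb, chr11:98887326-98887575 was held by 10 libraries, with percentiles from 3.00 to 56.0. All 3 ICRF-193 and all 3 DMSO libraries at 1 h held it, and 1 DMSO and no ICRF-193 library at 24 h. Brg1 tamoxifen replicate 1 and replicate 1 of both Baf53a groups held it too. This region was named after its values were seen, and the share of all regions with such a split was not determined here.

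The highest-scoring Top2b region, chr14:17196734-17198873 (2140 bp), was the broadest of the 47 regions and stood near the top of every list. It held 40 peaks over the 18 libraries, 1 to 4 per list, and its percentile ran from 98.3 to 99.8. Its common rank was 95.4 and 95.1 with DMSO for 24 h and 99.1 and 94.7 with ICRF-193. At 1 h it was 95.7, 96.4 and 92.6 against 95.2, 95.5 and 98.6, and the groups overlapped in all 4 contrasts. The mean differences were 1.67 points with ICRF-193 at 24 h, 1.55 at 1 h, 0.720 after Brg1 deletion and 0.188 after Baf53a deletion. A region this close to 100 has little room to rank higher.

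At 69.6 kb, chr14:17266980-17267801 (822 bp) held 1 peak in every library and ranked lower in every tamoxifen library than in every ethanol library of its line. In Brg1 cells the common rank was 93.7 and 96.3 with ethanol and 52.3 and 71.4 with tamoxifen. In Baf53a cells it was 80.3 and 71.6 with ethanol and 43.1 and 23.5 with tamoxifen. Within the whole list the percentiles were 98.9 and 99.2 against 89.0 and 88.5 in the Brg1 line, and 96.4 and 93.4 against 86.0 and 75 in the Baf53a line. The peak was thus detected in every list and stood lower in the tamoxifen lists. This order holds in both lines for 5.89% of the 18061 common regions.

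The mean difference in common rank of the 69.6 kb region was -33.1 points in the Brg1 line (61.9 ± 13.5 against 94.98 ± 1.86, SD, n = 2 each). For Baf53a it was -42.6 points (33.3 ± 13.9 against 75.9 ± 6.18, SD, n = 2 each). Differences at least as low were found in 6.31% of the common regions in the Brg1 line and in 0.520% in the Baf53a line. Regions of low control rank cannot fall that far and are counted in these shares all the same, a limit that the shares of falls given for other regions have too. With ICRF-193 for 24 h the common rank of the 69.6 kb region was 86.6 and 84.6 against 94.4 and 91.1 with DMSO, a difference of -7.16 points, and 27.9% of the regions had one at least as low. The 24 h, Brg1 and Baf53a contrasts together placed every treated library below every control in 2.13% of the common regions. At 1 h the values were 90.2, 90.1 and 83.9 with ICRF-193 and 91.8, 79.1 and 97.1 with DMSO, and they overlapped. The combination of contrasts was chosen after the values were seen, and the ranks are given without a test.

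At 15.1 kb, chr14:17212684-17213157 (474 bp) was the most variable of these regions in the wild-type cells. Its common rank was 76.8 and 77.1 with DMSO for 24 h and 41.0 and 73.0 with ICRF-193, both below the controls but far apart from each other. At 1 h it was 72.5, 22.6 and 52.2 with DMSO and 89.4, 51.7 and 71.0 with ICRF-193. The groups overlapped, with a mean difference of 21.6 points, and 3.22% of the common regions had one at least as high. In the Brg1 line it was 70.1 and 61.1 with ethanol and 71.8 and 84.6 with tamoxifen, without overlap, while within the whole list the groups overlapped (94.1 and 90.5 against 93.8 and 93.9). In the Baf53a line it was 46.4 and 68.0 against 47.6 and 55.6.

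At 82.4 kb, chr14:17279965-17280434 (470 bp) had the lowest mean common rank of the 5 in every group except Baf53a tamoxifen. Its rank was 13.8 and 16.8 with ICRF-193 for 24 h and 34.5 and 64.0 with DMSO. The mean difference was -33.9 points, which 3.02% of the common regions matched or exceeded downwards. Within the whole list the percentiles were 70.2 and 64.3 against 83.1 and 93.8. At 1 h the common rank was 48.0, 29.8 and 32.5 with ICRF-193 and 34.0, 38.3 and 31.1 with DMSO, which overlapped. Baf53a cells ranked it higher with tamoxifen (48.5 and 41.0) than with ethanol (37.1 and 27.4) by common rank, but within the whole list the groups overlapped (87.8 and 84.3 against 86.2 and 77.9). In the Brg1 line they overlapped on both measures (common rank 55.5 and 43.4 against 75.4 and 49.1).

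**Figure D3:**
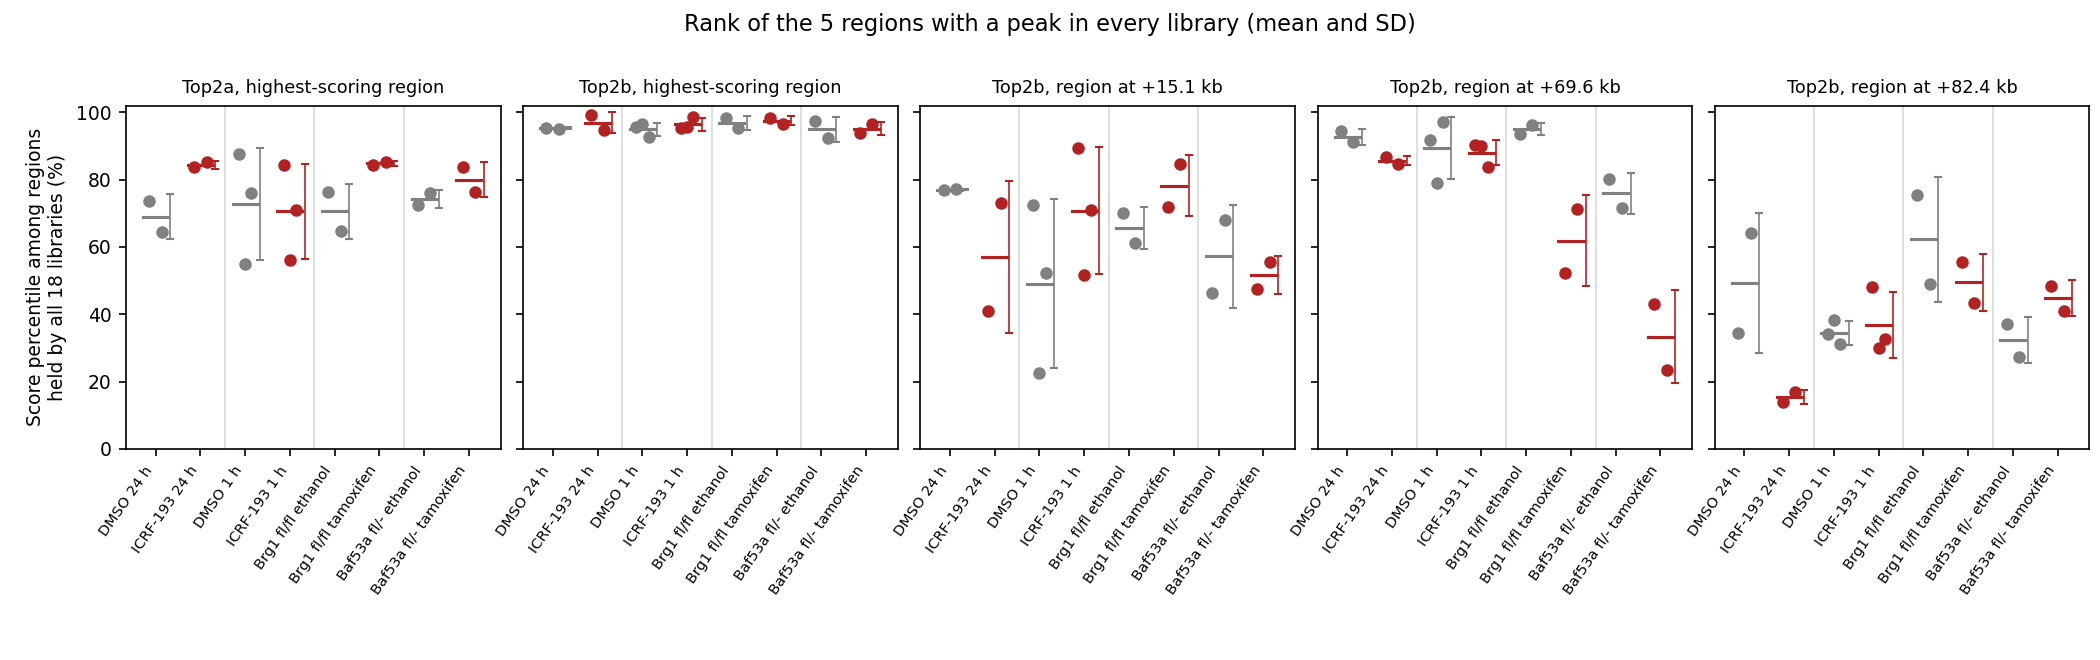
Score percentile among the 18061 regions held by all libraries, for the 5 regions of the 2 windows that belong to them, by group; points are libraries, horizontal lines means and error bars SD, with controls in grey and treated groups in red. The Top2b region at 69.6 kb stands at 52.3 and 71.4 in the Brg1 tamoxifen libraries and at 43.1 and 23.5 in the Baf53a tamoxifen libraries, below the ethanol libraries of each line, while the highest-scoring Top2b region stays above 92 in every library.

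Over the 5 regions held by all libraries, the order of groups was read against all 18061 common regions. With ICRF-193 for 24 h, 3 of the 5 ranked lower in both treated libraries (18.9% of all common regions did) and 1 higher (21.2%). At 1 h none of the 5 was lower or higher in all 3 treated libraries (4.83% and 5.08% of all regions). After Brg1 deletion 1 was lower (20%) and 2 were higher (25.5%). After Baf53a deletion 1 was lower (17.5%) and 2 were higher (19.6%). By the percentile within the whole list 1 of the 5 was lower and 0 were higher in each deletion line, and the counts with ICRF-193 were the same as by common rank. Such orders were thus frequent over the genome in the contrasts of 2 against 2 libraries, and nothing particular to the loci is read from 5 regions.

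Some regions were detected in the control libraries of a contrast and not in the treated ones. The 5 regions held by all libraries cannot be among them by construction. A region was counted as lost when every control library held a peak and no treated library did, and as gained in the reverse case. Of 9 regions that both DMSO libraries held at 24 h, 2 were lost with ICRF-193, against 15.5% of such regions in the series. They were the Top2a-window region at -51.8 kb and chr14:17161140-17161554, at -36.5 kb in the Top2b window, with percentiles of 16.1 and 62.0 in the DMSO libraries. All 3 ICRF-193 libraries at 1 h held the latter, at 76.8, 75.4 and 54.6. At 1 h 0 of 9 shared regions were lost (2.28% in the series), under a rule that needs 3 libraries on each side.

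Of 10 regions that both Brg1 ethanol libraries held, 3 were lost with tamoxifen, against 23.9% in the series. Beside the Top2a-window region at -41.8 kb these were chr14:17161574-17162143 and chr14:17180097-17180745, at -35.9 and -17.4 kb. In the ethanol libraries the first of them had percentiles of 26.7 and 21.6 and the second 74.1 and 37.1. All 4 Baf53a libraries held the -35.9 kb region, and of the Baf53a libraries only ethanol replicate 1 held the -17.4 kb region, at 24.0. After Baf53a deletion 0 of 10 shared regions were lost (11.2% in the series), and 9 of the 10 were held by all 4 libraries. No region of either window was gained in any contrast, out of 6, 10, 6 and 9 regions shared by the treated libraries. In the series the gained share was 5.46% at 24 h and 0.375% at 1 h with ICRF-193, 4.97% after Brg1 deletion and 5.49% after Baf53a deletion.

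The counts of lost regions changed when lists were shortened and when single libraries were left out. With every list shortened to the length of the shortest of its contrast (76898 peaks for ICRF-193 at 24 h, 46431 for Brg1), 0 regions were lost in either contrast. Shortening removed the lowest-scoring peaks, and each lost region then no longer had a peak in every control library. The 0 therefore cannot tell what list length had to do with the losses. In the Brg1 line the lists held 84763 and 46431 peaks with tamoxifen and 107473 and 85007 with ethanol. By the rule every ethanol library holds a lost region and every tamoxifen library lacks it, whatever the list lengths. Without a control library a loss needs fewer peaks, and without a treated library it needs fewer absences. Leaving out a library can therefore only keep or raise a count of lost or gained regions. The count of lost regions at 24 h was 7 without DMSO replicate 1 and 5 without replicate 2. After Brg1 deletion it was 6 and 5 without ethanol replicates 1 and 2, and 4 and 3 without tamoxifen replicates 1 and 2. After Baf53a deletion it was 2 and 5 without ethanol replicates 1 and 2 and 1 without tamoxifen replicate 1, and at 1 h it was 1 without DMSO replicate 2 or ICRF-193 replicate 3. Gained regions numbered 2 and 3 without ICRF-193 replicates 1 and 2 at 24 h, 2 and 1 without Brg1 tamoxifen replicates 1 and 2, and 3 and 1 without Baf53a tamoxifen replicates 1 and 2.

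Fewer base pairs of the Top2b window lay under peaks in the treated libraries of 3 contrasts, as was frequent in the genome. With DMSO for 24 h 1.92% and 2.33% of the window was covered and with ICRF-193 1.54% and 1.42%. For Brg1 it was 2.17% and 1.93% with ethanol and 1.53% and 1.03% with tamoxifen, and in the Baf53a line 1.87% and 1.86% against 1.84% and 1.52%. Among the 9233 tiles of 170 kb tested, every treated library had less under peaks than every control in 45.4% at 24 h, 42.9% in the Brg1 line and 22.5% in the Baf53a line. At 1 h the values overlapped (3.02%, 0.955% and 2.53% with DMSO, 2.09%, 1.15% and 2.07% with ICRF-193), and 0.347% of tiles were separated in this direction. Each of the 3 separated contrasts had an exact permutation p of 0.33, two-sided, the smallest that 2 against 2 libraries allow. With equal numbers of peaks per list the Top2b differences were -0.561, -0.367 and -0.184 percentage points at 24 h, in the Brg1 line and in the Baf53a line, against -0.643, -0.771 and -0.184 with all peaks.

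In the Top2a window the Brg1 line alone was separated, with 2.50% and 3.04% under peaks with ethanol and 2.24% and 0.824% with tamoxifen. With equal numbers of peaks its difference went from -1.24 to -0.0200 percentage points, and that of the Baf53a line from -0.346 to -0.0438. The share of the 12008 tiles of 80 kb that were separated in this way was 38.5% in the Brg1 line, 42.3% at 24 h, 0.633% at 1 h and 23.2% in the Baf53a line. The Top2a values overlapped at 24 h (1.89% and 2.98% with DMSO, 2.04% and 1.46% with ICRF-193), at 1 h (4.17%, 1.90% and 2.97% against 3.27%, 1.33% and 2.69%) and in the Baf53a line (3.72% and 2.04% against 2.59% and 2.48%).

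Over both ICRF-193 times together, with labels permuted within each time, the covered share differed by -0.635 percentage points in the Top2a window (two-sided exact permutation p = 0.2333). In the Top2b window the difference was -0.520 points (exact p = 0.1833, smallest possible 0.0167), and after Benjamini-Hochberg adjustment over the 10 tests both were at 0.5556. With equal numbers of peaks per list the Top2a difference was -0.156 points over both times, -0.0906 at 24 h and -0.220 at 1 h, against -0.683 and -0.587 at 24 h and 1 h with all peaks. The Top2b difference was then -0.402 points over both times and -0.244 at 1 h, against -0.397 at 1 h with all peaks. Between same-numbered libraries at 1 h the covered share differed by -0.905, -0.57 and -0.286 points for Top2a and by -0.926, 0.196 and -0.462 points for Top2b. Without DMSO replicate 2 at 1 h, a short list, the Top2b difference was -0.823 points with an unadjusted exact p of 0.0167. That omission keeps ICRF-193 replicate 2, a still shorter list. Without this ICRF-193 library instead, the difference was -0.365 points (unadjusted exact p = 0.4667). Omitting any other 1 h library gave an unadjusted exact p of 0.2333 to 0.45.

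Relative to the length of each list, the number of peaks in the windows did not pass the test in any contrast. The Top2a window held 5 and 7 peaks with DMSO for 24 h and 6 and 3 with ICRF-193, and at 1 h 14, 6 and 9 against 10, 5 and 9. The log2 change of peaks per list total was -0.07 (SE 0.34) at 24 h and 0.07 (SE 0.28) at 1 h (limma, adjusted p = 0.996 and 0.998). The Top2b window held 9 and 11 peaks with DMSO for 24 h and 9 and 7 with ICRF-193, and at 1 h 13, 4 and 13 against 10, 7 and 10. Its log2 change was 0.05 (SE 0.33) at 24 h and 0.31 (SE 0.27) at 1 h (limma, adjusted p = 0.991 and 1.000). A difference between the effects at 24 h and at 1 h was not called either (-0.14, SE 0.44, for Top2a and -0.26, SE 0.42, for Top2b, limma adjusted p = 0.999 and 1.000).

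In the Brg1 line the Top2a window held 5 and 8 peaks with ethanol and 7 and 3 with tamoxifen, and the Top2b window 10 and 9 against 6 and 6. The log2 changes were 0.19 (SE 0.34) and -0.01 (SE 0.33), with limma adjusted p of 0.854 and 0.994. Baf53a counts were 11 and 7 against 8 and 6 for Top2a and 8 and 8 against 5 and 8 for Top2b. The log2 changes were -0.19 (SE 0.34) and -0.18 (SE 0.33), with limma adjusted p of 0.993 and 0.996. Of the 12008 tiles of the size of the Top2a window 0.566% were called in the Brg1 line, 0.00833% in the Baf53a line and 0 at 24 h and at 1 h. Of the 9233 tiles of the size of the Top2b window 1.20% were called in the Brg1 line, 0.0108% in the Baf53a line and 0 at either time of ICRF-193. At an unadjusted p under 0.05 limma gave, for ICRF-193 at 24 h, 293 of the 12008 tiles of 80 kb higher and 250 lower. Of the 9233 tiles of 170 kb 219 were higher and 267 lower. At 1 h limma gave 294 and 208 tiles of 80 kb and 156 and 180 of 170 kb. A share of about 0.05 of tiles would reach such a p without any change, and no tile is read as changed from these counts. The windows hold 3 to 14 peaks per list, and this small number limits the precision of each change.

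**Figure D4:**
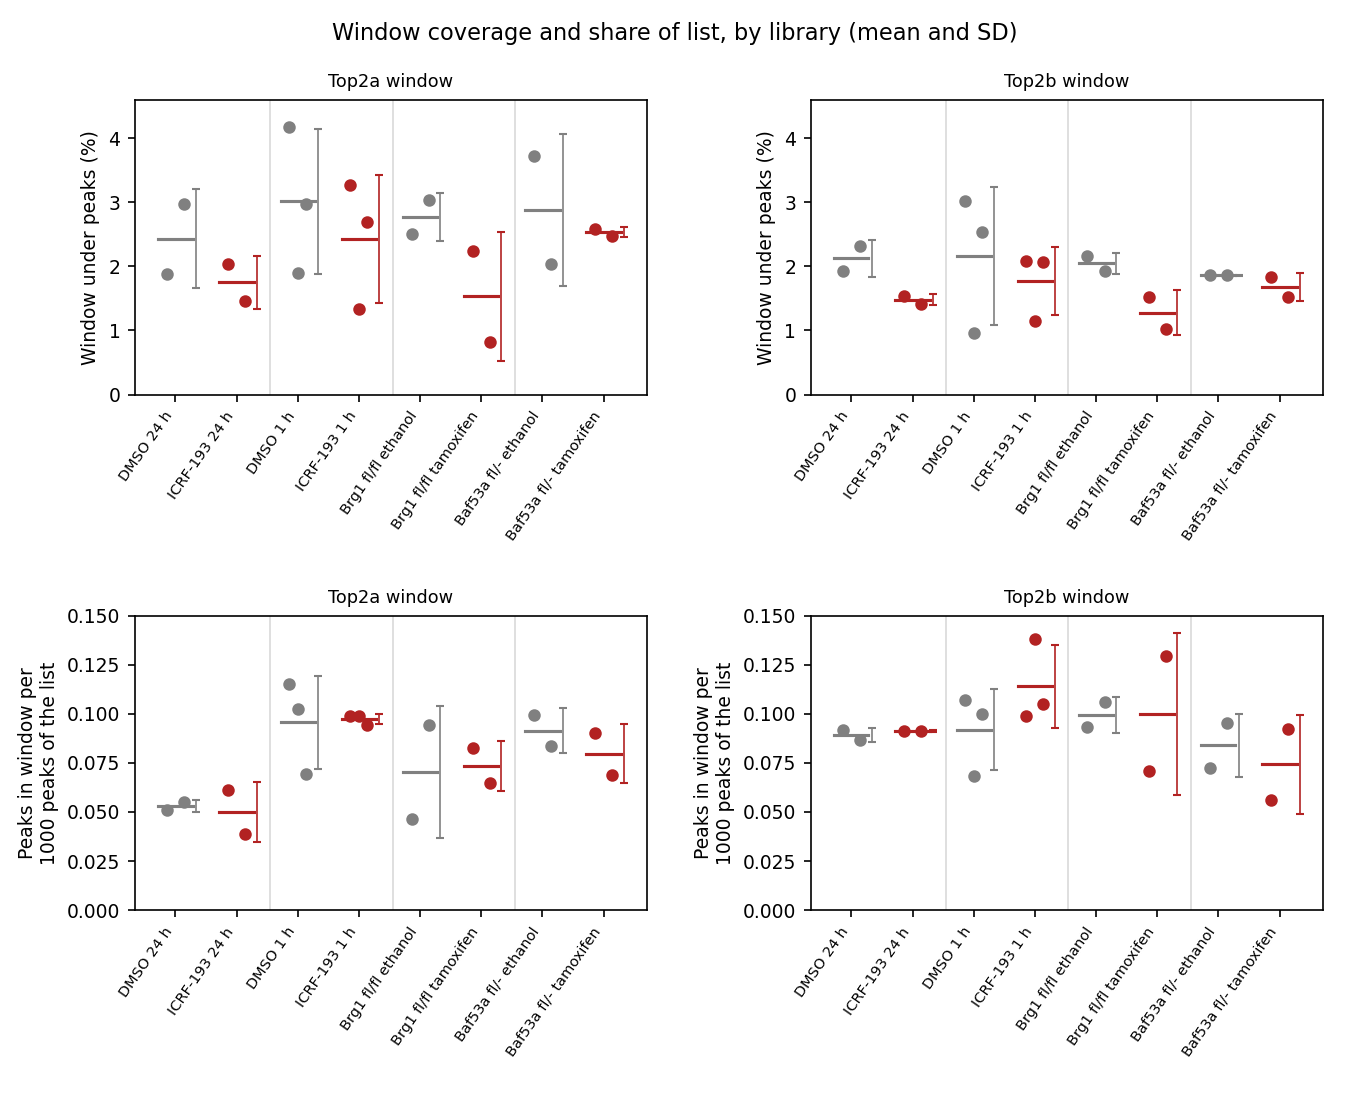
Share of each window under peaks (upper panels, %) and peaks in the window per 1000 peaks of the list (lower panels), by group; points are libraries, horizontal lines means and error bars SD, with controls in grey and treated groups in red. Coverage of the Top2b window is lower in both ICRF-193 libraries at 24 h (1.54% and 1.42%) than with DMSO (1.92% and 2.33%), while peaks relative to list length overlap in that contrast.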

How the data were processed

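Each of the 18 libraries has 1 deposited peak list, called per sample. The submitters' processing notes name the build mm9 and, without saying what each did, Bowtie 0.12.9, edgeR 3.12.1 and MACS2. Read shifting, blacklists and calling thresholds were not given in the sources used here. Starts and ends (other values of the deposited lists) are printed counted from 1, and the authors' score per peak, of no stated unit, served only as a rank. The windows, regions and lists were chosen with earlier results of these data known.

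Peaks were merged with Python 3.11.15 (numpy 2.4.6, pandas 2.3.3) and checked against bedtools 2.31.1. Tiles of 80 and 170 kb, placed so that each window is a tile, with a mean of 3 or more peaks, were fitted with limma 3.58.1 in R 4.3.3 on log2((peaks + 0.5) / list total × 1000), with 1 term per group over all 18 libraries, a variance trend and Benjamini-Hochberg adjustment over all tiles (called at an adjusted p under 0.05). The fit was tested on simulated data. Coverage was compared by two-sided exact permutation.

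Regions named by rule are the 4 per window with the highest median percentile among those in 9 or more libraries, and all lost or gained ones. Some of these are given by counts and ranges or with values of some groups only. Others named were chosen after their values were seen. Same-numbered libraries at 1 h deviated together over the 80 kb tiles (correlations 0.193, 0.284 and 0.123, each over 0.1), and the numbers were taken to pair them. DMSO replicate 3 and ICRF-193 replicate 1 also correlated at 0.115, and DMSO replicate 1 and ICRF-193 replicate 3 at 0.0752. Replicate 2 of either group correlated with the other numbers at -0.227 to -0.146. The values set replicate 2 apart and do not settle how replicates 1 and 3 pair. Each library was taken relative to its group mean, so that a positive correlation for a library forces negative values among its others. Replicate 2 was also the shortest list of either group at 1 h, and the part of list length in these correlations was not tested. Replicate 1 and later numbers also carry different name prefixes in the deposit. The rank among regions held by all libraries was added after the data were seen, as an alternative to the percentile within each list. Equal numbers of peaks, pseudocount, filter, scaling, wider windows, merging, the replicate block and leaving out libraries were the other alternatives. Other topoisomerase genes were not analysed here, because no annotation on mm9 was used.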

Additional observations from a re-analysis of the deposited data

How the results depend on the processing

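No call for a window changed under any alternative except Top2b coverage over both ICRF-193 times without DMSO replicate 2 at 1 h (-0.823, unadjusted exact p = 0.0167). Without ICRF-193 replicate 2 at 1 h that difference was -0.365 (unadjusted exact p = 0.4667). The uncalled log2 changes of peaks per list total turned sign as follows: Top2a at 24 h with equal numbers of peaks (0.14), Top2a at 1 h without scaling (-0.24), Top2a in the Brg1 line without scaling (-0.42) and with wider windows (-0.31), Top2b at 24 h without scaling (-0.31), with equal numbers (-0.17) and with wider windows (-0.039), and Top2b in the Brg1 line with a pseudocount of 1 (0.024) and wider windows (0.041). The cause was not tested. Without scaling, the median of all 80 kb tiles moved to -0.27, -0.24, -0.47 and -0.13 (24 h, 1 h, Brg1, Baf53a) from 0.086, 0.066, 0.14 and 0.000091.

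With single libraries left out, log2 changes ran from -0.34 to 0.20, -0.15 to 0.21, -0.29 to 0.67 and -0.37 to -0.0097 for Top2a and from 0.0036 to 0.10, 0.15 to 0.42, -0.45 to 0.42 and -0.51 to 0.15 for Top2b, in the same order. They turned sign without ICRF-193 replicate 2 (24 h, Top2a), DMSO replicate 3 (1 h, Top2a), Brg1 ethanol replicate 1 (Top2a), Brg1 tamoxifen replicate 1 or ethanol replicate 2 (Top2b) and Baf53a tamoxifen replicate 1 or ethanol replicate 2 (Top2b). Coverage differences ran from -1.23 to -0.136, -1.14 to -0.00854, -1.95 to -0.525 and -1.18 to 0.492 points for Top2a and from -0.844 to -0.442, -1.004 to 0.0267, -1.02 to -0.523 and -0.341 to -0.0265 for Top2b, turning sign without Baf53a ethanol replicate 1 (Top2a) and without DMSO replicate 1 at 1 h (Top2b). Over both ICRF-193 times they ran from -0.913 to -0.346 and from -0.823 to -0.308.

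Called 80 kb tiles at 24 h numbered 2 with a pseudocount of 1, 2 without a filter and 3 with wider windows, and 1 at 1 h with equal numbers. In the Brg1 line they numbered 37 with a pseudocount of 1, 6 without scaling, 301 with equal numbers and 126 with wider windows, against 68. In the Baf53a line they were 0 without scaling, with equal numbers, with wider windows and with the replicate block. Called 170 kb tiles numbered 1 at 24 h and 2 in the Baf53a line with a pseudocount of 1, 0 in the Baf53a line without scaling or with wider windows, and 54, 4, 395 and 193 in the Brg1 line with a pseudocount of 1, without scaling, with equal numbers and with wider windows, against 111. Leaving out single libraries gave 0 to 4, 0, 8 to 594 and 0 to 6 called 80 kb tiles and 0 to 12, 0, 5 to 510 and 0 to 10 called 170 kb tiles.

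Lost regions numbered 0 at 24 h and 0 in the Brg1 line with equal numbers, and 6 (Brg1) and 3 (Baf53a) with wider windows, where 1 was gained in the Baf53a line. Leaving out a library can only keep or raise these counts. With single libraries left out lost regions ran from 2 to 7, 0 to 1, 3 to 6 and 0 to 5. Gained ones ran from 0 to 3, 0, 0 to 2 and 0 to 3. Merging only peaks that share 50% of the shorter peak changed none of these counts.

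With the replicate block, limma gave the same log2 changes for the windows and called none (adjusted p 0.994 for Top2a and 0.969 for Top2b at 1 h). Sign flips within pairs gave exact p of 0.25 and 0.5 for coverage at 1 h. In the other contrasts, with 2 numbers each, same-numbered libraries share only a number (correlations from -0.0099 to 0.054).

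From the percentile within the list to the common rank, the mean difference between groups changed by at least the SD of that percentile within groups in 15 comparisons of a region and a contrast, and by less in 5. The 2 measures differed in sign for 2 regions whose groups overlapped on both, the highest-scoring Top2b region in the Brg1 line (-0.181 and 0.720) and the Top2b region at 82.4 kb at 1 h (-4.07 and 2.31). The cause was not tested.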
